A study of Danio rerio with 6 samples.

Results

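The midbrain-hindbrain boundary genes *eng2a*, *wnt1*, *otx2b* and *gbx2* were followed in RNAseq of *pax8*:DsRed-positive cells. They were chosen as 4 Ensembl identifiers with a fixed chromosome for each. The rule used no measured values, but earlier results of these data were known when the genes were chosen. All 4 lay on the stated chromosome, and they are 4 of the 32266 genes in the deposited count table. The cells came from heterozygous *pax8*:DsRed zebrafish embryos at late stages of the otic-epibranchial progenitor domain (OEPD), with 6 to 9 somites, and were sorted by fluorescence because the transgene labels the OEPD and the nephric anlagen. Of the 6 samples, 3 were wild type (wt) and 3 came from embryos injected at the one-cell stage with antisense morpholinos against *dlx3b* and *dlx4b* (dlx3p4_MO, called MO samples here). Both groups carry the transgene, and a control injection of wild-type embryos is not described in the methods. Effects of Dlx3b/4b depletion and of the injection cannot be told apart in these samples. Each library is a bulk pool of sorted cells, in which fewer cells of a type and less RNA per cell cannot be told apart.

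The midbrain-hindbrain boundary, or isthmus, is a signalling centre of the early neural plate. Otx factors mark the fore- and midbrain and Gbx factors the hindbrain, and their mutual repression sets the position of the boundary. Wnt1 on the midbrain side and Fgf8 on the hindbrain side then act as its secreted signals, and Engrailed and Pax2/5/8 transcription factors hold the domain. The boundary lies anterior to the OEPD, and *pax8*, whose regulatory elements drive the transgene, belongs to the Pax2/5/8 group.

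The wt libraries held 27373965 to 28480101 counted reads and the MO libraries 23846555 to 26250129. Levels are given as counts per 1000000 counted reads (CPM), on which scale 3 counts correspond to 0.105 to 0.126. Intervals on single libraries are exact 95% Poisson intervals and cover counting error only. CPM values were scaled by the TMM method, which corrects library totals for composition. Nothing in the labels says whether the numbered samples came from separate clutches. The methods describe 3 biological replicates per condition and a clutch effect that was controlled for. In models that hold the replicate number, p-values weigh the group difference against the variation left after it. Otherwise they weigh it against the spread between samples. Both cover these samples only. Morpholinos block translation or splicing and need not change how much of an RNA is counted, so that the counts of the targets do not check the labels. *dlx3b* ranged from 30.2 to 144.1 CPM in wt and from 51.3 to 179.8 CPM in MO samples, and the ranges overlapped.

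None of the 4 genes was called as changed between MO and wt samples. A gene was called where the Benjamini-Hochberg adjusted p from edgeR's quasi-likelihood test fell under 0.1, in a model that held the replicate number as a block. This held for 0 of the 4, whereas 10.9% of the 17526 genes tested were called. Without the replicate number 0 of the 4 were called as well, while 6.2% of all genes tested were called higher and 7.52% lower in MO samples. DESeq2 also called 0 of the 4, with or without the replicate number, but the share of all genes that it called was not counted. At an unadjusted p under 0.05 edgeR found 1 of 4, *gbx2*, against 22.6% of all genes tested. The wt and MO values overlapped for each of the 4 genes, while they did not overlap for 31.5% of all genes tested. *gbx2* and *eng2a* had lower and *wnt1* and *otx2b* had higher mean levels in MO samples.

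**Figure D1:**
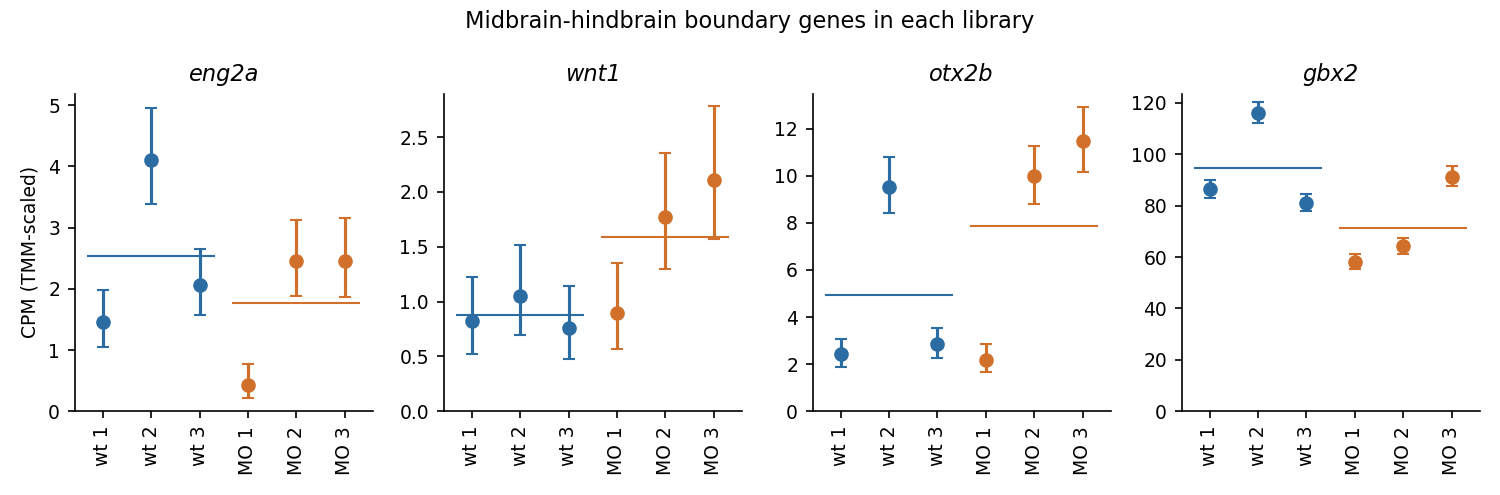
Expression of *eng2a*, *wnt1*, *otx2b* and *gbx2* in CPM on a linear axis from 0 for each of the 6 libraries (blue, wt; orange, dlx3p4_MO, written MO). Points are libraries, bars the exact 95% Poisson intervals and lines the group means (n = 3). The groups overlap in every panel, and *otx2b* lies above 9 CPM in wt 2, MO 2 and MO 3 and below 3 CPM in the other libraries.

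*gbx2* (ENSDARG00000002933), the hindbrain-side homeobox gene, lies at 15904249 to 15907346 on the forward strand of chromosome 6 and has 2 exons. Coordinates are those of the count table, for which the submitters' processing notes name the build GRCz10 and the methods GRCz11. Outside the brain, mouse Gbx2 is known for its role in inner ear morphogenesis. It was the most highly counted of the 4 genes. The reads counted were 2423, 3109 and 2366 in wt 1, wt 2 and wt 3 and 1490, 1704 and 2163 in MO 1, MO 2 and MO 3. The corresponding levels were 86.3, 116.2 and 81.2 CPM in the wt and 58.2, 64.2 and 91.3 CPM in the MO libraries. MO 1 and MO 2 lay below all wt samples, whereas MO 3 lay above wt 1 and wt 3. The mean was 94.6 ± 18.9 CPM (SD, n = 3) in wt and 71.2 ± 17.7 CPM (SD, n = 3) in MO samples. The log2 fold change was −0.42 ± 0.18 (estimate ± standard error, SE, with a 95% interval of −0.82 to −0.02), with an adjusted p of 0.199 in edgeR's test. The expected counting error was 1.84 CPM in wt and 1.69 CPM in MO samples, far below the spread between replicates. Whether *gbx2* was called depended on MO 3 and on the filter on low counts, without which it was called with all 6 samples (adjusted p = 0.0388, edgeR). Without MO 3, in the model without the replicate number, the log2 fold change was −0.62 with an adjusted p of 0.0764 in edgeR. Without replicate 3 of both groups, in the model with the replicate number, it was −0.69 with an adjusted p of 0.000196 in edgeR. Only 2 samples per group remained in that fit beside the block. It also left out the MO sample within the wt range, so that its p is weak evidence.

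*otx2b* (ENSDARG00000011235), the homeobox gene of the fore- and midbrain side, lies at 44130894 to 44135955 on the reverse strand of chromosome 17 and has 5 exons. Its raw counts were 68, 255 and 83 in wt 1, wt 2 and wt 3 and 56, 265 and 272 in MO 1, MO 2 and MO 3, or 2.42, 9.53 and 2.85 CPM and 2.19, 9.98 and 11.5 CPM. The libraries thus fell at a high or a low level within each group, with wt 2, MO 2 and MO 3 high. The means were 4.93 ± 3.99 CPM (SD, n = 3) in wt and 7.89 ± 4.99 CPM (SD, n = 3) in MO samples, and counting alone would give an SD of 0.424 and 0.562 CPM. The log2 fold change was 0.65 ± 0.40 (SE, 95% interval −0.25 to 1.54, adjusted p = 0.372, edgeR). Its sign and size rested on which libraries were used. It was −0.00073 without replicate 3 of both groups and 1.58 without wt 2 in the model without the replicate number, and neither fit called the gene. A gene on the opposite strand, ENSDARG00000097731, shares a span of 113 bp with *otx2b* and had 0, 2 and 1 counts in the wt and 5, 4 and 16 in the MO libraries. Whether strand was used in counting is not stated, and reads of both genes in this span cannot be told apart.

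*eng2a* (ENSDARG00000026599), which encodes an Engrailed homeodomain factor of the boundary region, lies at 40708828 to 40713383 on the reverse strand of chromosome 7 and has 2 exons. It had 41, 110 and 60 raw counts in wt 1, wt 2 and wt 3 and 11, 65 and 58 in MO 1, MO 2 and MO 3. In CPM these were 1.46, 4.11 and 2.06 in wt and 0.430, 2.45 and 2.45 in MO samples. MO 1 was the lowest library and wt 2 the highest, 9.57 times above it, and the other libraries lay between 1.46 and 2.45 CPM. For MO 1 the Poisson interval ran from 0.215 to 0.769 CPM and did not reach that of any other library. The means were 2.54 ± 1.39 CPM (SD, n = 3) in wt and 1.78 ± 1.17 CPM (SD, n = 3) in MO samples. The log2 fold change was −0.66 ± 0.42 (SE, 95% interval −1.61 to 0.28, adjusted p = 0.387, edgeR). It was −0.05 without MO 1 and 0.014 without wt 2, in the model without the replicate number, where it was −0.52 with all samples. The gene lies within the span of an opposite-strand gene, ENSDARG00000102807, which had at most 1 count in any library.

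*wnt1* (ENSDARG00000055554), which encodes the secreted Wnt signal of the midbrain side, lies at 27725129 to 27731964 on the forward strand of chromosome 23 and has 5 exons. It was the least counted of the 4 genes. Its raw counts were 23, 28 and 22 in wt 1, wt 2 and wt 3 and 23, 47 and 50 in MO 1, MO 2 and MO 3, or 0.819, 1.05 and 0.755 CPM and 0.898, 1.77 and 2.11 CPM. MO 2 and MO 3 lay above all wt samples, whereas MO 1 lay between wt 1 and wt 2. Among wt samples the SD of 0.153 CPM was within the 0.177 CPM that counting alone would give. Among MO samples the SD was 0.626 CPM, against 0.252 CPM from counting. The means were 0.874 and 1.59 CPM (n = 3 each), and the log2 fold change was 0.80 ± 0.44 (SE, 95% interval −0.20 to 1.80, adjusted p = 0.317, edgeR). It was positive in every fit that left out samples, from 0.48 to 1.15, and called in none of them. With this spread and n = 3 per group, an MO level between 0.873 and 3.49 times that of wt was within the 95% interval.

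**Figure D2:**
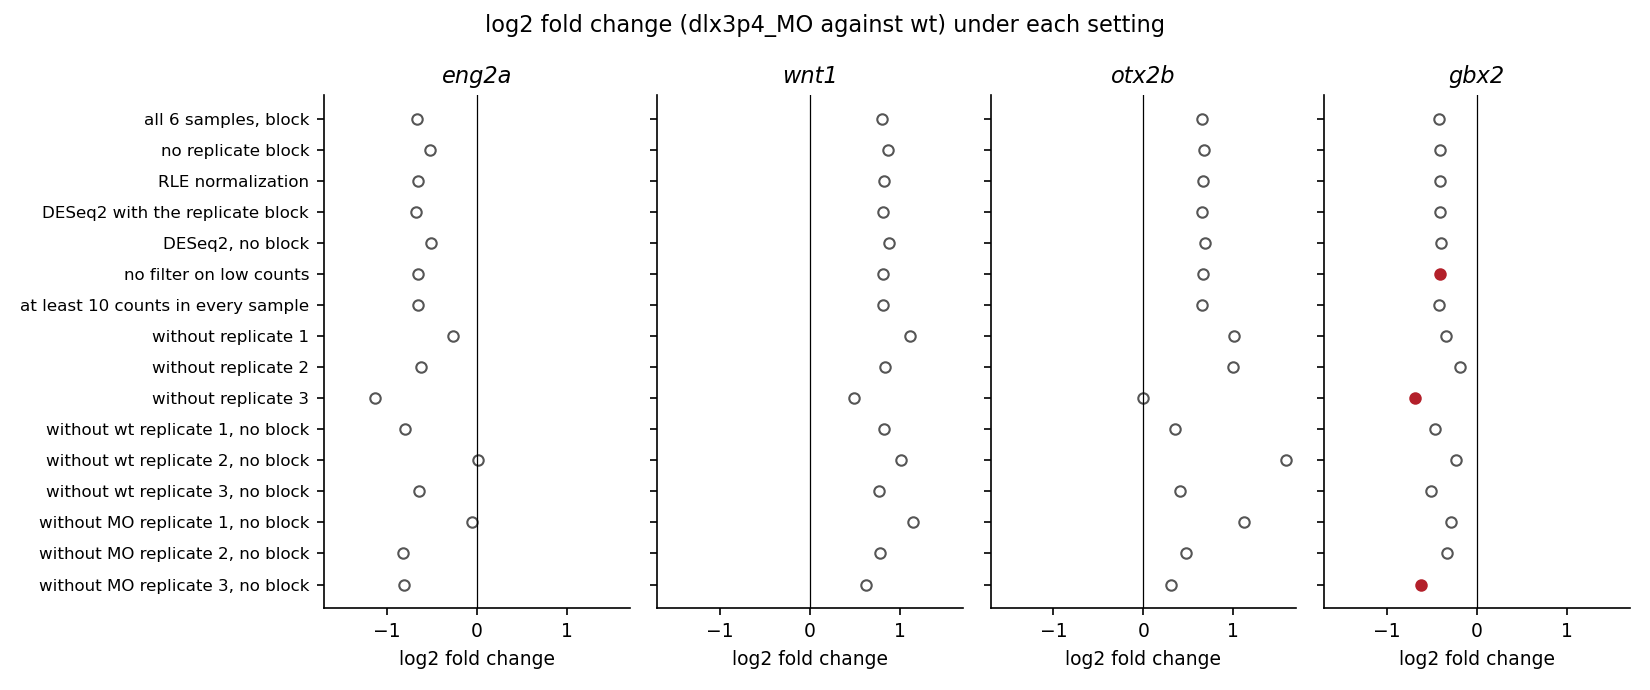
The log2 fold change of each boundary gene (x axis, dlx3p4_MO against wt, positive when higher in MO samples) under each setting (y axis). Filled red points have an adjusted p below 0.1 and open points do not, and only *gbx2* has filled points, 1 with all 6 samples and no filter and 2 with samples left out.

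Levels were compared between the genes only per length, as CPM per kilobase of exon. *gbx2* had a mean of 39.6 ± 9.91 CPM per kilobase (SD over 6 samples), above 89.2% of the genes tested. *otx2b* followed with 2.61 ± 1.78, above 41.1% of the genes tested, then *eng2a* with 0.742 ± 0.420, above 21.1%, and *wnt1* with 0.493 ± 0.227 CPM per kilobase, above 15.4%. The median over all genes tested was 4.26 CPM per kilobase. The levels of *eng2a* and *wnt1* overlapped between libraries, as did those of *otx2b* and *eng2a*. Within each library, however, *otx2b* lay above *eng2a*. The levels of *gbx2* lay above the others in all 6 libraries. Per length, the level of *gbx2* was 41.7, 14.3 and 33.4 times that of *otx2b* in wt 1, wt 2 and wt 3 and 31.1, 7.53 and 9.31 times in MO 1, MO 2 and MO 3. This ratio does not depend on the scaling of the libraries. The log2 ratio of *otx2b* to *gbx2* was −4.76 ± 0.82 (SD, n = 3) in wt and −3.70 ± 1.11 (SD, n = 3) in MO samples. The difference of 1.06 did not pass an exact permutation test (two-sided, p = 0.2, where 3 against 3 samples cannot give a p below 0.1). This test did not use the replicate number. For each number the log2 ratio was higher in the MO than in the wt sample. Leaving out 1 library moved the difference to between 0.67, without MO 2, and 1.69, without MO 1.

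The 4 genes were also set beside each other and beside all genes tested in how they varied over the libraries. Likeness was measured as the root mean square difference of log2 CPM (prior count 2) over the 6 samples, after each gene was centred on its mean. The distances between the 4 genes ranged from 0.626 for *wnt1* and *gbx2* to 0.939 for *otx2b* and *gbx2*. The prior count shrinks differences at low counts, and genes that vary little lie close to many others. The closest pair, *wnt1* and *gbx2*, had log2 fold changes of opposite sign (0.80 and −0.42). *eng2a* and *otx2b* lay 0.705 apart, and 6.62% of the genes tested lay closer to *eng2a* than that. Counted from *eng2a*, this share was 8.19% for *gbx2* and 28.9% for *wnt1*, and counted from *otx2b* it was 15.3% for *gbx2*. For *wnt1*, 59.1% of the genes tested lay closer than *gbx2* and 61.9% closer than *otx2b*. Each share was counted from 1 gene of the pair only, and the shares did not follow the distances. The nearest of all genes tested, in the symbols of the name table, was *zgc:136493* for *eng2a* (0.182), *NIPAL4* for *wnt1* (0.0415), *DBX1* for *otx2b* (0.218) and *aldh3b1* for *gbx2* (0.0587). *zgc:136493* had 10, 34 and 16 raw counts in wt and 3, 15 and 17 in MO samples. *NIPAL4* had 14, 16 and 13 raw counts in wt and 14, 30 and 32 in MO samples. *DBX1*, a homeobox gene of neural progenitors, had 13, 44 and 14 raw counts in wt and 10, 34 and 50 in MO samples. *aldh3b1*, named for an aldehyde dehydrogenase, had 193, 243 and 198 raw counts in wt and 126, 146 and 168 in MO samples.

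Markers of other brain regions differed between the same libraries. The 4 midbrain markers (*barhl2*, *dmbx1a*, *dmbx1b* and *pax7a*) summed to 2.46, 5.87 and 2.47 CPM in wt 1, wt 2 and wt 3 and to 1.48, 7.12 and 7.77 CPM in MO 1, MO 2 and MO 3. As for *otx2b*, wt 2, MO 2 and MO 3 were high. The same libraries had the highest sums of forebrain and of epidermal markers, so that this profile was not particular to the midbrain. Most of the epidermal sum was *krt4* and *krt5*, which had this profile, as did *tp63*. The remaining epidermal marker, *cdh1*, did not, with 146.1, 225.1 and 129.4 CPM in wt and 76.6, 77.9 and 82.8 CPM in MO samples. Of the 7 forebrain markers, 6 were paired with a row, and they summed to 14.2 to 30.7 CPM in wt and to 8.36 to 37.6 CPM in MO samples, with MO 1 lowest. Among the midbrain and forebrain markers, which have *barhl2* in common, 0 were called, beside 10.9% of all genes tested, and none was at 0 in all samples. The groups overlapped for each, while they did not overlap for 31.5% of all genes tested. At an unadjusted p under 0.05 edgeR found 0 of them, against 22.6% of all genes tested. The 7 hindbrain markers summed to 157.6 to 195.2 CPM in wt and 163.5 to 183.5 CPM in MO samples. Most of this sum was *hoxb1b*. By contrast, *egr2b* had 2.92, 11.4 and 3.40 CPM in wt and 1.33, 6.59 and 7.22 CPM in MO samples. Of the 6 tested, 1 was called, *mafba*, which was lower in MO samples, beside 6.05% of all genes tested. The groups did not overlap for 2, *mafba* and *hoxa2b* (31.5% of all genes tested). Both were at an unadjusted p under 0.05 in edgeR, and *hoxa2b* was higher in MO samples (log2 fold change 0.39, adjusted p = 0.217, edgeR). The part of these regions in the levels of the 4 genes was not tested.

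**Figure D3:**
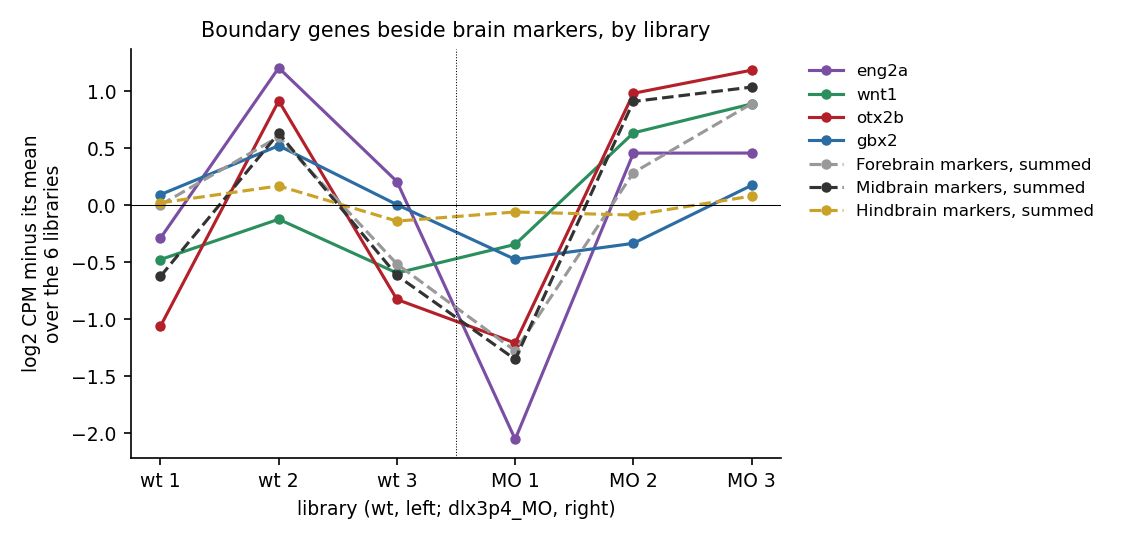
log2 CPM of the 4 boundary genes (solid lines) and of the summed forebrain, midbrain and hindbrain markers (dashed lines), each minus its mean over the 6 libraries, by library (wt, left; dlx3p4_MO, written MO, right). *otx2b* and the midbrain and forebrain markers are highest in wt 2, MO 2 and MO 3. The summed hindbrain markers vary least, and *gbx2* is lowest in MO 1 and MO 2.

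The paralogues of *otx2b* and *gbx2* were not called either. *gbx1*, which zebrafish use early in hindbrain positioning, had 3.74, 9.79 and 3.09 CPM in wt and 1.68, 3.16 and 3.08 CPM in MO samples (log2 fold change −0.94, standard error 0.34, adjusted p = 0.146, edgeR). Like *gbx2* it was at its highest in wt 2, and without that sample its log2 fold change was −0.36. With samples left out the adjusted p of *gbx1* in edgeR ranged from 0.00471 to 0.555, so that it was called in some of these fits. *otx1* had 5.63, 9.98 and 4.94 CPM in wt and 3.59, 12.6 and 12.6 CPM in MO samples, and *otx2a* 3.67, 9.01 and 1.89 CPM and 2.15, 6.06 and 6.54 CPM. MO 1 was lowest for *otx1* and wt 3 for *otx2a*. Their log2 fold changes were 0.37 and 0.11 (standard errors 0.33 and 0.46), with adjusted p of 0.563 and 0.918 in edgeR. *crx* was under the filter on low counts, and *otx5* was not paired with a row.

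Among 14 further regulators of the boundary region, 13 were tested. Of these, 1 was called lower and 0 higher in MO samples, beside 6.05% and 4.85% of all genes tested. The median log2 fold change was −0.05 against −0.01 over all genes tested. The called gene was *irx1b*, an Iroquois homeobox gene that zebrafish use in the neural plate around the boundary. It had 38.5, 103.7 and 30.4 CPM in wt 1, wt 2 and wt 3 and 14.5, 25.6 and 27.8 CPM in MO 1, MO 2 and MO 3, so that all MO samples lay below all wt samples. Its log2 fold change was −1.19 ± 0.30 (SE, adjusted p = 0.0509, edgeR), and it was called in 7 of 15 alternative fits, which did not include those with DESeq2. Without wt 2 it was −0.60 and not called. *en2b*, the paralogue of *eng2a*, had 4.20, 3.63 and 2.44 CPM in wt and 1.45, 4.86 and 4.31 CPM in MO samples (log2 fold change −0.05, standard error 0.44, adjusted p = 0.959, edgeR). Like *eng2a*, it was lowest in MO 1. *en1a*, a further Engrailed gene chosen after its values were seen, had 0.463, 0.411 and 0.618 CPM in wt and 2.03, 1.39 and 0.887 CPM in MO samples. Its raw counts were 13, 11 and 18 in wt and 52, 37 and 21 in MO samples. The groups did not overlap, as for 31.5% of all genes tested, and the log2 fold change of *en1a* was 1.47 ± 0.51 (SE, adjusted p = 0.133, edgeR). Without the replicate number in the model it was called, with an adjusted p of 0.0727 in edgeR. *en1b*, under the filter on low counts, went the other way, with 7, 8 and 2 raw counts in wt and 0, 2 and 0 in MO samples. *pax2a*, the earliest Pax gene of the boundary in zebrafish and also a gene of the OEPD, had 651.9, 744.4 and 607.4 CPM in wt and 600.5, 522.7 and 544.9 CPM in MO samples (log2 fold change −0.26, standard error 0.11, adjusted p = 0.200, edgeR), and the groups did not overlap. With samples left out the adjusted p of *pax2a* in edgeR ranged from 0.0941 to 0.618.

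Of 12 Wnt ligands and targets on the list, 10 were paired and 9 tested. Of these, 3 were called higher and 0 lower in MO samples, beside 4.85% and 6.05% of all genes tested. The median log2 fold change was 0.52, against −0.01 over all genes tested. The called genes are targets or intracellular parts of the pathway and not ligands. *lef1*, a transcription factor of the pathway, had 53.5, 40.6 and 43.7 CPM in wt and 94.8, 82.3 and 89.4 CPM in MO samples. All its MO samples lay above all wt samples (log2 fold change 0.96, standard error 0.11, adjusted p = 0.00324, edgeR), and *lef1* was called in all 15 alternative fits, *nkd1* in 9 and *axin2* in 5. *nkd1* and *axin2*, feedback inhibitors of the pathway, had log2 fold changes of 0.52 and 0.34 (standard errors 0.12 and 0.11), with adjusted p of 0.0364 and 0.0998 in edgeR, and *axin2* was not called without the replicate number (adjusted p = 0.205, edgeR). *wnt10b*, a Wnt ligand expressed with *wnt1* at the zebrafish boundary, had 2.14, 3.55 and 0.892 CPM in wt and 0.586, 0.414 and 1.10 CPM in MO samples. Its log2 fold change was −1.54 ± 0.63 (SE, adjusted p = 0.186, edgeR), opposite in sign to that of *wnt1*. With samples left out it ranged from −2.44 to −0.77, and the adjusted p in edgeR from 0.00338 to 0.603, so that *wnt10b* was called in some of these fits.

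Of 18 Fgf ligands, receptors and targets, 17 were tested. Of these, 4 were called higher and 0 lower, beside 4.85% and 6.05% of all genes tested. The median log2 fold change was 0.21, against −0.01 over all genes tested. *fgf8a*, the ligand of the hindbrain side, was not called, with 18.9, 12.8 and 13.1 CPM in wt and 14.6, 23.1 and 19.1 CPM in MO samples (log2 fold change 0.34, standard error 0.23, adjusted p = 0.414, edgeR). The called genes were *il17rd*, *spry1* and *spry4*, which inhibit Fgf signalling in feedback, and *etv5b*, an ETS factor induced by it. Their log2 fold changes were 0.63, 0.36, 0.35 and 0.54 (adjusted p = 0.0113, 0.0831, 0.0789 and 0.0175, edgeR). In all 4 the MO samples lay above the wt samples, as for 15.1% of all genes tested. These 4 were picked by their calls in the same samples, so that this adds no support. Of the 17 tested, the groups did not overlap for 9, against 31.5% of all genes tested. The 4 were called in 14, 11, 8 and 14 of the 15 alternative fits. Other listed targets were not called. *etv4*, a further ETS factor, had a log2 fold change of −0.38 (adjusted p = 0.312, edgeR). *spry2*, *dusp6* and *etv5a* had log2 fold changes of 0.12, 0.11 and 0.25. In the paper, in situ hybridization of *etv5b* in offspring of *dlx3b/4b* heterozygotes showed no striking difference. The paper proposes that the method did not resolve a moderate increase. *pax8* itself, on whose reporter the cells were sorted, had 249.1, 303.7 and 227.4 CPM in wt and 415.3, 265.0 and 322.1 CPM in MO samples. It was not called (log2 fold change 0.35, standard error 0.16, adjusted p = 0.241, edgeR). With samples left out its adjusted p in edgeR ranged from 0.0125 to 0.85, so that *pax8* was called in some of these fits.

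Over the 4 lists together, 46 of 49 genes were paired with a row and 42 tested. Of these, 7 were called higher and 1 lower, and the groups did not overlap for 17. Of all genes tested, 4.85% were called higher and 6.05% lower, and the groups did not overlap for 31.5%. The split by direction also moved, to 8 higher and 4 lower with no filter on low counts, 9 higher and 5 lower without replicate 3 of both groups, and 5 higher and 5 lower without wt 3 in the model without the replicate number. The share of all genes called was not counted in the fits without the filter or with samples left out. Moves of the listed genes in these fits thus have no such share beside them. The 8 calls changed with the samples used. They became 1 without replicate 1, 4 without replicate 2 and 14 without replicate 3 of both groups, and in the model without the replicate number 4 without wt 1, 4 without MO 1 and 4 without MO 2.

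**Figure D4:**
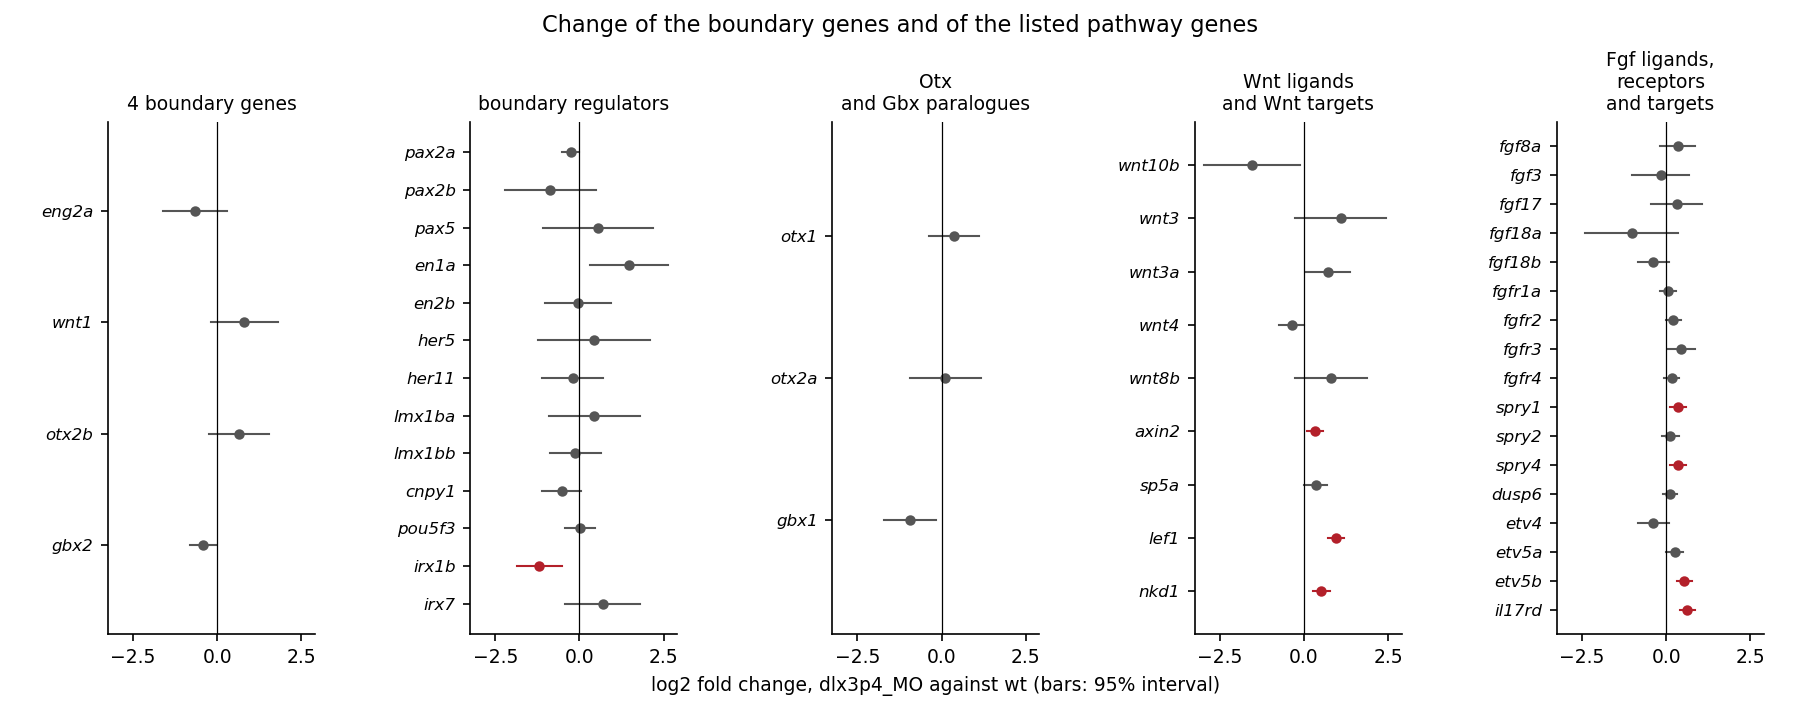
log2 fold change (x axis, dlx3p4_MO against wt) with its 95% interval for the 4 boundary genes and for the tested genes of the 4 lists (y axis). Red marks an adjusted p below 0.1. The intervals of *eng2a*, *wnt1* and *otx2b* include 0, that of *gbx2* ends at −0.02, and 8 of the 42 listed genes are red.

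Markers of the other cells in the sort moved with the groups in part, and their calls stand beside the 4.85% of all genes tested that were called higher and the 6.05% called lower. The 10 OEPD markers summed to 1231, 2045 and 1094 CPM in wt 1, wt 2 and wt 3 and to 1204, 1031 and 1318 CPM in MO 1, MO 2 and MO 3, with wt 2 highest as for *gbx2*. Most of this sum was *pax2a*, also listed as a boundary regulator, and *pax8*, so that it says little of the other OEPD markers. Of the 10, 5 had a positive log2 fold change, and the median was −0.09. All 10 OEPD and all 6 nephric markers were counted in every group. Of the 10 OEPD markers 1 was called lower, *sox9b* (log2 fold change −2.11, adjusted p = 0.0317, edgeR). Of 6 nephric markers, *osr1* was called higher and *cdh17* lower. Among 4 paired blood and vessel markers 2 were called lower, including *gata1a*, and they summed to 2212 to 2918 CPM in wt and 1776 to 1878 CPM in MO samples. The 6 muscle and paraxial mesoderm markers summed to 167.1 to 202.9 CPM in wt and 216.1 to 285.8 CPM in MO samples, with 1 called higher. Of 4 epidermal markers, *cdh1* was called lower, and the sum was highest in wt 2, MO 3 and MO 2, at 1651, 1109 and 1002 CPM. Of 4 neural crest markers, *tfap2a* was called lower and *snai2* higher, and *foxd3* was at 0 in all samples. The part of these cells in the levels of the boundary genes was not tested.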

How the data were processed

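RNA of sorted *pax8*:DsRed-positive cells was sequenced in 3 wild-type and 3 morphant (MO) samples, grouped by the sample titles. The authors deposited raw read counts per gene, without normalization, with the exon length of each gene. The submitters' processing notes name bcl2fastq 2.17.1.14, featureCounts 1.5.2 and GRCz10. The study's methods describe GSNAP alignment to GRCz11 of uniquely aligned reads. Labels and methods also differ on the library kit (a strand-specific poly(A) kit or Smart-seq2), and no genome was used here. The 92 spike-in features had 0 counts and were left out.

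The counts were tested with edgeR 4.0.16 in R 4.3.3 (filterByExpr, TMM normalization, quasi-likelihood test, adjusted p below 0.1 by the Benjamini-Hochberg procedure over 17526 genes). The replicate number was a block beside the condition, because the methods account for differences between clutches. The standard error was the size of the log2 fold change divided by the square root of F. The alternatives tried were DESeq2 1.42.0, no block, RLE normalization, other filters, an adjusted p below 0.05 and leaving out samples. The code was tested on simulated counts. Figures used matplotlib 3.10.9.

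Symbols came from a table of Ensembl identifiers that covered 26433 of 32266 genes. It gives many zebrafish genes the symbol of their family in capitals, so that paralogues were told apart by the chromosome of the symbol in RefSeq (GRCz12tu). The members and lists were chosen with earlier results of these data known. Named were the 4 genes, the called genes of the pathway lists (at most 12), 8 of their partners, up to 6 called markers of largest change, and the nearest gene to each of the 4. *mafba* and *snai2* were named as the remaining calls of their lists, and *hoxb1b*, *egr2b* and *hoxa2b* as further hindbrain markers, all chosen after their values were seen. *en1b*, *etv4*, *etv5a*, *spry2*, *dusp6*, *krt4*, *krt5* and *tp63* were also named after their values were seen.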

Additional observations from a re-analysis of the deposited data

How the results depend on the processing

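With all 6 samples, 0 of the 4 boundary genes were called under each alternative but that without a filter. With no filter on low counts 1 was called, *gbx2* (log2 fold change −0.41, adjusted p = 0.0388, edgeR). Across the 9 fits that left out samples the number was 0 to 1. There, the log2 fold change ranged from −0.69 to −0.19 for *gbx2*, from −0.00073 to 1.58 for *otx2b* (−0.00073 to 1.01 where both samples of a number were left out), from −1.13 to 0.014 for *eng2a* and from 0.48 to 1.15 for *wnt1*, with opposite signs for *otx2b* without replicate 3 and for *eng2a* without wild-type replicate 2. Of the listed pathway genes 8 were called, and 4 at an adjusted p below 0.05. The number was 12 with no filter on low counts, 11 with DESeq2 without the block and 7 with DESeq2 and the block. It was 1 to 14 across the fits with fewer samples. The share of all genes called under these alternatives was not counted. The difference in the log2 ratio of *otx2b* to *gbx2* stayed positive without each sample, at 0.67 to 1.69, and levels per length moved by less than their spread with other scalings. The cause of these changes was not tested.

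The replicate numbers did not pair the samples by their values. The deviations of same-numbered samples from their group means correlated across genes at r = 0.16, 0.055 and −0.14 for numbers 1, 2 and 3. Between samples of different numbers r ranged from −0.24, for wt 2 and MO 1, to 0.22, for wt 2 and MO 3. Without the replicate block 0 of the 4 boundary genes and 8 of the listed genes were called, and 2405 of all genes in place of 1911.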
